A study of Mus musculus with 4 samples.

Results

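AP-1 and EGR immediate-early factors are represented here by 10 genes, namely Fos, Fosb, Fosl2, Jun, Junb, Jund, Atf3, Egr1, Maff and Dusp1, out of 18193 genes measured. They were taken by name, and every probe set whose platform annotation names one of these genes alone was kept. That gave 13 probe sets of 45037 that were not controls, with 2 each for Fosl2, Jun and Jund and 1 each for the other 7 genes. Where a gene had 2, the probe set with the higher mean over all arrays stood for it. The cells were haematopoietic stem cells (HSCs) from the bone marrow of transgenic mice that carry a fusion gene of N-myc and the red fluorescent protein mCherry. They lacked lineage markers and CD48, carried Sca-1, Kit and CD150, were neither cultured nor treated, and went straight into Trizol. mCherry separated an N-myc high from an N-myc low fraction, and each fraction was profiled from mouse 1 and mouse 2, which gives 4 arrays in 2 groups of 2. All 4 carried the fusion gene, so no array without it stands beside them, and the age of the mice is not given in the sources used here. Each array started from 5 ng of total RNA, which was amplified, and its values are log2 intensities.

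AP-1 is a pair of basic leucine zipper proteins, in which a FOS protein (Fos, Fosb, Fosl2) joins a JUN protein (Jun, Junb, Jund) through its zipper and binds DNA. Jun proteins can also pair among themselves or with ATF proteins. Fos, Fosb, Jun, Junb, Atf3, Egr1, Maff and Dusp1 are immediate-early or early genes, which a cell transcribes within minutes of a growth factor, cytokine or stress signal, by way of MAP kinases, SRF and CREB and without new protein synthesis. They are also known to be induced while tissue is dissociated and sorted. In mouse HSCs, Egr1 is known for holding the cells in quiescence and in their niche, and Junb for limiting their expansion.

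The promoters of 4 of the genes are shown because their levels followed different lines in these data: Fos, Fosb and Dusp1 were high on the arrays of mouse 2, and Maff was high on the N-myc high arrays. The RefSeq table of promoter windows (build GRCm38.p6, 250 bases before to 50 after the annotated start) held 11 windows for 9 of the 10 genes, with 3 starts for Maff. Of these 3, the window with the most motif matches is printed. Each line runs 5′ to 3′ on the gene's strand, and capitals mark matches, on either strand, to TGACG (the core of the cAMP response element, CRE), TGACGTCA (the full CRE, which contains that core on both strands), GCGNGGGCG (the EGR motif) and CACGTG (the E-box bound by MYC and MAX).
Fos, chr12:85473640-85473939, plus strand: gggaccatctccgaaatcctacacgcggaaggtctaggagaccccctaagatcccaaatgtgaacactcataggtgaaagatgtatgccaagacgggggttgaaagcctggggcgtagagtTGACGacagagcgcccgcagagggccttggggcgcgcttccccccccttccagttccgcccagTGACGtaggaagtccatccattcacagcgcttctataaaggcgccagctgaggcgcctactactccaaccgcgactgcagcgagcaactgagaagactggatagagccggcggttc
Fosb, chr7:19309996-19310295, minus strand: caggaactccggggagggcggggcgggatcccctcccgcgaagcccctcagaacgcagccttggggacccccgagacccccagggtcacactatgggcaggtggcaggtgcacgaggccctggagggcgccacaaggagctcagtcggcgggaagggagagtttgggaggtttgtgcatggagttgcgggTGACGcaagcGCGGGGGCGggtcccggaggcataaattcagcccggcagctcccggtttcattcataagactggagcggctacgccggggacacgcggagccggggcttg
Dusp1, chr17:26508423-26508722, minus strand: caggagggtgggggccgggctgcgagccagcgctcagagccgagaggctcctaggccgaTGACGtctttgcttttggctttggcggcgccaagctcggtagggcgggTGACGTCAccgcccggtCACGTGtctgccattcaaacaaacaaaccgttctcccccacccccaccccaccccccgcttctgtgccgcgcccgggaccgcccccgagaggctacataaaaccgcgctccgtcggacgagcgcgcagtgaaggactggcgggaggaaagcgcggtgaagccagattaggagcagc
Maff, chr15:79347270-79347569, plus strand: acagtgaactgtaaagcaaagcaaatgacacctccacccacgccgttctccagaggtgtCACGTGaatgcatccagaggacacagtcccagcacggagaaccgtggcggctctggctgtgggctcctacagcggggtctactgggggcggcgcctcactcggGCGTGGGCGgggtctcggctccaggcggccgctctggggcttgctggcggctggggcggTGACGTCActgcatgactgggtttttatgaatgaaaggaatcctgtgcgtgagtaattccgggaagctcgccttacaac

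Fos had the CRE core 129 and 66 bases before its start. Fosb had the core at 60 bases and an EGR match at 50 bases before its start. Dusp1 had the full CRE at 143 bases, a further core at 191 bases and an E-box at 126 bases before its start. Maff had the full CRE at 29 bases, an EGR match at 88 bases and an E-box at 191 bases before its start. Of all 32851 windows in the table, 1.79% held the full CRE, 20.8% its core, 5.55% the EGR motif and 7.15% the E-box. The full CRE and the E-box were each in 2 of the 11 windows of these genes, the core in 7 and the EGR motif in 3. The AP-1 motif TGANTCA, in 7.81% of all windows, and the CArG box of SRF, in 1.63%, were in 0 of the 11. Jun, Egr1 and Fosl2, whose promoters are not printed, were also higher on the arrays of mouse 2. The window of Jun held 0 matches to these motifs, that of Fosl2 held an EGR match and no CRE core, and Egr1 had no window. A link between a motif and the levels was not tested. A match is a match of letters only, and a missing one says no more than that the letters are not in this window.

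The arrays labelled mouse 1 held both Xist, the RNA of the inactive X chromosome, at 11.38 (N-myc high) and 11.10 (N-myc low), and the Y-linked gene Eif2s3y, at 8.53 and 8.43. Those labelled mouse 2 had Xist at 3.84 and 3.70 and Eif2s3y at 9.40 and 9.67. Whether the label mouse 1 stands for 1 animal was not tested.

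The comparison of N-myc high with N-myc low HSCs gave higher values for 7 of the 10 genes in mouse 1 and in mouse 2, namely Fos, Fosb, Junb, Jund, Egr1, Maff and Dusp1, and lower values in both mice for 0 of them. Over all genes, 23.2% were higher and 29.7% lower in both mice. Dusp1 counted by 0.0060 in mouse 2, and Jund by its brighter probe set only. The count was 6 with array centring, with the mean of probe sets and with the most variable probe set. The 10 genes were chosen with earlier results of these data known. Fosl2, Jun and Atf3 had opposite signs in the mice, as did 46.1% of all genes. For Junb, Jund and Maff the fractions did not overlap, with N-myc high on top, an order found in 15.6% of all genes, and the reverse order, found in 20.8%, was seen for 0 of the 10. The median difference of the 10 genes, N-myc high minus N-myc low, was 0.26 on the log2 scale, against -0.03 over all genes. Taken mouse by mouse, the median was 0.41 in mouse 1 and 0.19 in mouse 2, against -0.06 and -0.0035 over all genes. The median of 0.26 depended on single arrays, and leaving out any of them leaves the mice unbalanced. It was 0.50 without the N-myc high array of mouse 1 and -0.07 without that of mouse 2. Without the N-myc low array of mouse 1 it was -0.16, and without that of mouse 2 it was 0.61. In limma, 0 of the 10 and 0 of all 18193 genes (0%) reached an adjusted p under 0.05. At an unadjusted p under 0.05, limma put 1 of the 10, Maff, on the higher side, where 3.53% of all genes stood, and 0 on the lower side, where 2.78% stood (6.31% in either direction). With the mouse as a block in the fit, Maff and Egr1 stood on the higher side (2 of 10, against 3.59% of all genes) and 0 on the lower side (2.45%, and 6.04% in either direction), and 0 of 18193 genes passed the adjusted threshold (0%). With 2 arrays against 2, the lowest two-sided p that exact permutation of 1 gene's values allows is 0.333. The limma p-values reflect the spread between these arrays only, with each gene's variance drawn toward a value fitted over all genes. The fit with the mouse as a block leans on that value more, since it fits a further term to the same 4 arrays.

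**Figure D1:**
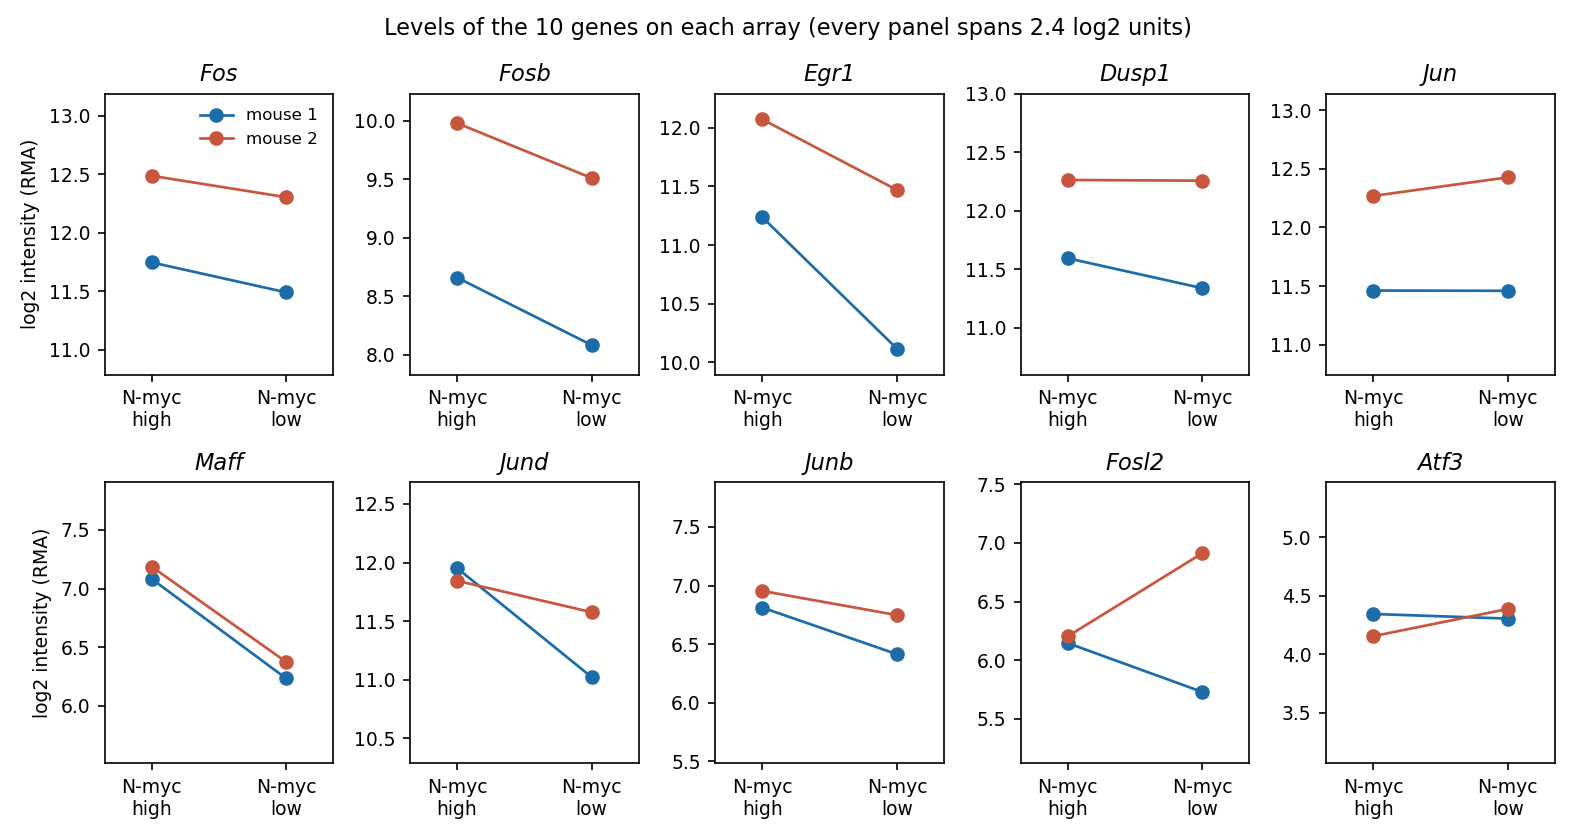
Log2 intensity (vertical axis) of each gene on the N-myc high array (left) and the N-myc low array (right) of a mouse, with a line joining the arrays of mouse 1 (blue) and of mouse 2 (red). Every panel spans the same number of log2 units, centred on its gene. In Fos, Fosb, Egr1, Dusp1 and Jun the red line lies above the blue one throughout, whereas in Maff both lines drop to the right by about the same amount.

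Egr1, a zinc finger transcription factor, had a log2 intensity of 11.24 and 12.07 in the N-myc high arrays of mouse 1 and mouse 2, against 10.12 and 11.47 in the N-myc low arrays (probe set 1417065_at). The fractions overlapped, because the N-myc low array of mouse 2 lay above the N-myc high array of mouse 1. Taken mouse by mouse, N-myc high exceeded N-myc low by 1.12 in mouse 1 and by 0.60 in mouse 2. The average was 0.86, or 1.82-fold (SE 0.56; limma, adjusted p = 0.826). With the mouse as a block the SE was 0.23 and the unadjusted p 0.0298, while the limma adjusted p was 0.781. The difference stayed above 0 with any 1 of the arrays left out, at 0.18 without the N-myc low array of mouse 1 and 1.54 without that of mouse 2.

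Fos, the AP-1 subunit for which the family is named, had 11.75 and 12.49 in the N-myc high arrays of mouse 1 and 2, against 11.49 and 12.30 in the N-myc low arrays (probe set 1423100_at). The same-mouse differences were 0.26 and 0.18, small beside the gap between the mice, which was 0.74 for the N-myc high arrays and 0.81 for the N-myc low ones. On average N-myc high was higher by 0.22 (SE 0.40; limma, adjusted p = 0.942). The sign turned without the N-myc high array of mouse 2 (-0.15) and without the N-myc low array of mouse 1 (-0.19), each of which leaves the mice unbalanced.

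Fosb, a close relative of Fos that is induced alongside it, had 8.66 and 9.98 in the N-myc high arrays of mouse 1 and 2, against 8.08 and 9.51 in the N-myc low arrays (probe set 1422134_at). As with Fos, the order of the arrays followed the mouse before the fraction. N-myc high was higher by 0.58 in mouse 1 and by 0.47 in mouse 2. The average was 0.52, or 1.44-fold (SE 0.67; limma, adjusted p = 0.911), and with the mouse as a block the SE was 0.19 (unadjusted p = 0.0611). Without the N-myc high array of mouse 2 it was -0.14, and without the N-myc low array of mouse 1 it was -0.19.

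Fosl2, which encodes the FOS protein Fra-2, was also higher on both arrays of mouse 2, but its fractions differed in opposite directions in the mice. It had 6.14 and 6.20 in the N-myc high arrays of mouse 1 and 2, against 5.73 and 6.91 in the N-myc low arrays (probe set 1437247_at). The N-myc low arrays were the lowest and the highest of the 4, so the difference was 0.42 in mouse 1 and -0.71 in mouse 2, with a mean of -0.15 (SE 0.43; limma, adjusted p = 0.971). Its mean was 0.45 without the N-myc low array of mouse 2. The dimmer probe set, 1422931_at, had 4.99 and 5.00 in N-myc high, against 5.14 and 5.05 in N-myc low, a difference of -0.10 (SE 0.18), and it did not show the gap between the N-myc low arrays. Its values all lay below the median of their array.

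Jun, the JUN protein that with Fos forms the classical AP-1, had 11.46 and 12.27 in the N-myc high arrays of mouse 1 and 2, against 11.46 and 12.43 in the N-myc low arrays (probe set 1417409_at). The 4 values formed 2 levels, one for each mouse. Within a mouse the difference was 0.0022 and -0.16, and the mean was -0.08 with a 95% interval of -1.28 to 1.13 (limma, adjusted p = 0.988). With the mouse as a block the interval was -0.65 to 0.50. The other probe set, 1448694_at, gave the same picture, with 9.19 and 9.98 on the N-myc high arrays, against 9.26 and 10.08 on the N-myc low ones, a difference of -0.08 (SE 0.43). The mean difference turned positive without the N-myc high array of mouse 1 (0.33) and without the N-myc low array of mouse 2 (0.41).

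Junb, a JUN protein that can oppose Jun on shared targets, had 6.81 and 6.95 in the N-myc high arrays of mouse 1 and 2, against 6.41 and 6.75 in the N-myc low arrays (probe set 1415899_at). The fractions did not overlap, by a margin of less than 0.1. The average was 0.30, or 1.23-fold (SE 0.21; limma, adjusted p = 0.827). Jund, the JUN protein kept at a steady level in resting cells, had 11.95 and 11.84 in N-myc high, against 11.02 and 11.58 in N-myc low (probe set 1449117_at). Its fractions did not overlap either, and the difference of 0.60 (1.51-fold, SE 0.25; limma, adjusted p = 0.792) came mainly from mouse 1, with 0.93, beside 0.27 in mouse 2. The dimmer probe set of Jund, 1440265_at, had 6.90 and 5.94 in N-myc high, against 6.08 and 6.43 in N-myc low. Its difference was 0.82 in mouse 1 and -0.48 in mouse 2, with a mean of 0.17 (SE 0.39).

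Maff is a small MAF protein with a leucine zipper and no activation domain, which binds DNA as a partner of CNC factors such as Nrf2. It had 7.08 and 7.19 in the N-myc high arrays of mouse 1 and 2, against 6.23 and 6.37 in the N-myc low arrays (probe set 1418936_at). The fractions were well apart and the mice close together, with mouse 2 above mouse 1 by 0.10 on the N-myc high arrays and by 0.14 on the N-myc low ones. The same-mouse differences were 0.85 and 0.81, and the mean was 0.83, or 1.78-fold, with a 95% interval of 0.35 to 1.31 (SE 0.18; limma, unadjusted p = 0.0077 and adjusted p = 0.762). It ranged from 0.76 to 0.90 with any 1 array left out. Atf3, a stress-induced ATF protein that often represses, had 4.34 and 4.15 in N-myc high, against 4.30 and 4.39 in N-myc low (probe set 1449363_at). All 4 of its values lay below the median of their array, and the mean difference was -0.10 (SE 0.19; limma, adjusted p = 0.946).

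Dusp1, the phosphatase that inactivates MAP kinases and so shuts off the signal behind these genes, had 11.59 and 12.26 in the N-myc high arrays of mouse 1 and 2, against 11.34 and 12.26 in the N-myc low arrays (probe set 1448830_at). N-myc high was higher by 0.26 in mouse 1 and by 0.0060 in mouse 2, while the mice differed by 0.67 and 0.92. Averaged, the fractions differed by 0.13 (SE 0.42; limma, adjusted p = 0.974). It was -0.20 without the N-myc high array of mouse 2 and -0.33 without the N-myc low array of mouse 1.

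**Figure D2:**
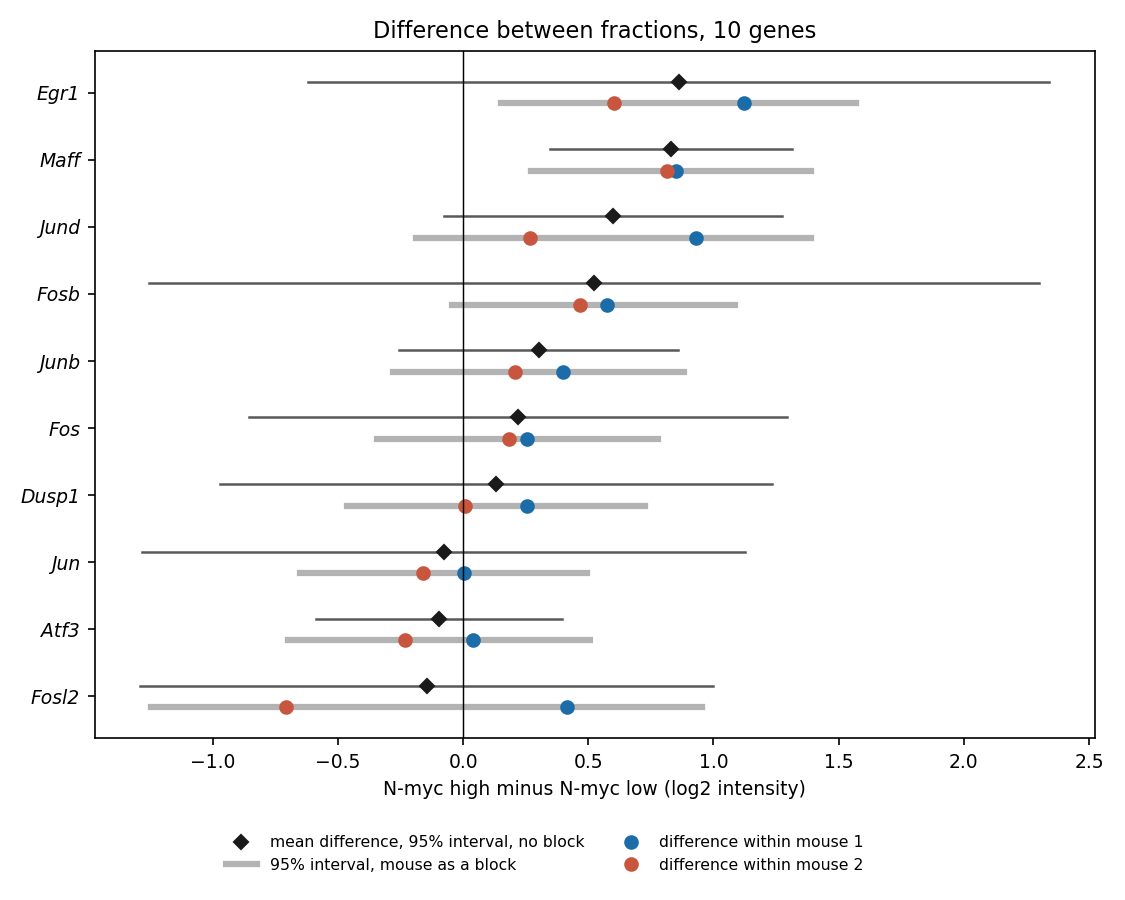
N-myc high minus N-myc low (horizontal axis, log2 intensity) for each gene, ordered by size. Black diamonds and thin lines give the limma difference and its 95% interval without the mouse, grey bars the 95% interval with the mouse as a block, and coloured dots the difference within mouse 1 (blue) and mouse 2 (red). The thin lines of Fos, Fosb, Egr1, Dusp1 and Jun are far longer than their grey bars, and those of Maff and Egr1 are the grey bars that lie above 0.

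The difference between the mice was the larger one for 6 of the 10 genes, against 47.1% of all genes. For Fos, Fosb, Fosl2, Jun, Egr1 and Dusp1 both arrays of mouse 2 lay above both arrays of mouse 1, an order found in 16.9% of all genes, while the reverse order, found in 14.6%, was seen for 0 of the 10. Averaged over the fractions, mouse 2 exceeded mouse 1 by 1.37 for Fosb, 1.10 for Egr1, 0.89 for Jun, 0.79 for Dusp1 and 0.78 for Fos, but by 0.62 for Fosl2 on the strength of the N-myc low arrays alone (1.18, beside 0.06 in N-myc high). The dimmer probe set of Fosl2, 1422931_at, did not show the order of mouse 2 above mouse 1, with a difference between the mice of -0.04. That probe set lay below the median of every array, where a gap may not show. The median difference between the mice over the 10 genes was 0.70, against 0.02 over all genes. Maff, Junb, Jund and Atf3 differed between the mice by 0.12, 0.24, 0.22 and -0.05. The mouse is no group of the study, and these values carry no test. Across the 10 genes, which are not independent replicates, the distances of an N-myc high array and the N-myc low array of its mouse from their group means had a Pearson r of 0.763, against 0.0492 across all genes.

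The lists of other immediate-early genes and of heat-shock chaperones were also set against the mouse. Among 39 other immediate-early and early-response genes, both mouse 2 arrays lay above both mouse 1 arrays for 14 and below them for 2. These orders were found in 16.9% and 14.6% of all genes. The inducible heat-shock genes Hspa1a and Hspa1b, near-identical copies whose signals may not be separate, were singled out after their values were seen. Hspa1b had 10.05 (N-myc high) and 10.76 (N-myc low) in mouse 2, against 7.85 and 8.25 in mouse 1. Hspa1a had 7.30 and 7.48 in mouse 2, against 5.18 and 5.81 in mouse 1. Both were lower in N-myc high than in N-myc low within each mouse, the opposite sign to Fos, Fosb and Egr1, with differences of -0.56 (SE 1.13) and -0.40 (SE 0.92). The other 10 measured chaperones differed between the mice by at most 0.89 in size, and that largest value, of Bag3, was negative (-0.89). Of all 12 chaperones, both mouse 2 arrays lay above both mouse 1 arrays for 4 and below them for 2. Their median difference between the mice was 0.07. The mice also differed in Xist, as given above, and in Hspa1a and Hspa1b. The part of any of these in the differences between the mice was not tested.

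**Figure D3:**
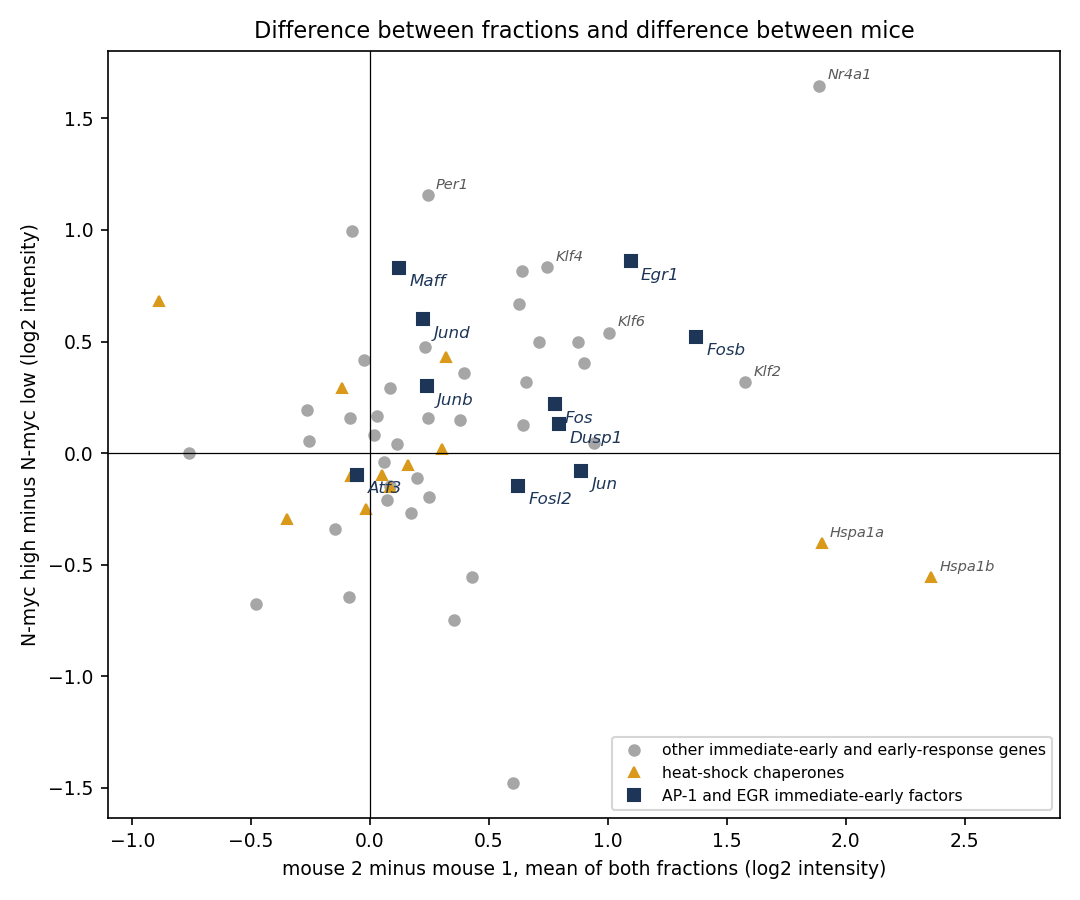
Mouse 2 minus mouse 1, averaged over the fractions (horizontal axis), and N-myc high minus N-myc low (vertical axis), both in log2 intensity, for the 10 genes (dark squares), 39 other immediate-early genes (grey dots) and 12 heat-shock chaperones (orange triangles). Fosb and Egr1 lie to the right and above 0, Maff and Jund lie above 0 near the vertical line, Jun lies to the right near the horizontal line, and Hspa1a and Hspa1b lie far to the right and below 0.

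The genes around these factors were read from 7 further lists. Of the other immediate-early and early-response genes, 17 of 39 were higher and 5 lower in both mice, with a median difference of 0.16. In limma, 1 was higher and 1 lower at an unadjusted p under 0.05, and 0 passed the adjusted threshold. These were the circadian gene Per1, at 7.06 and 7.70 in N-myc high, against 6.30 and 6.15 in N-myc low (difference 1.16, SE 0.28), and the kinase gene Sgk1, at 5.40 and 5.05 against 5.78 and 5.96 (difference -0.64, SE 0.22). The growth arrest gene Gadd45b had a difference of -0.75 (SE 0.29). With the mouse as a block, 3 were higher and 0 lower at that p, and Nr4a1 and Klf4, named after their values were seen, joined Per1. Nr4a1, an orphan nuclear receptor of the immediate-early class, had 6.85 and 8.55 in the N-myc high arrays of mouse 1 and 2, against 5.01 and 7.09 in the N-myc low arrays. Its difference was 1.65, with an SE of 0.91 without the block and 0.21 with it, and as for Egr1 mouse 2 was above mouse 1 and N-myc high above N-myc low.

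Of the other EGR factors and their NAB co-repressors, 4 of 6 were higher and 0 lower in both mice, beside 23.2% and 29.7% of all genes. Their median was 0.15, and 0 passed an unadjusted p under 0.05 in limma, beside 6.31% of all genes in either direction. Nab2, which represses EGR proteins, had 8.77 and 9.20 in N-myc high, against 8.49 and 7.95 in N-myc low (difference 0.76, SE 0.29). Its relative Nab1 differed by 0.33 (SE 0.22), and the EGR family gene Egr4 by 0.17 (SE 0.23). Of 10 other MAP kinase phosphatases of the DUSP family, 4 were higher and 2 lower in both mice (median 0.17), and 2 were higher and 0 lower at an unadjusted p under 0.05, against 1 and 0 with the mouse as a block. Dusp5, a nuclear phosphatase of ERK, had 5.55 and 5.57 in N-myc high, against 5.00 and 4.99 in N-myc low (difference 0.56, SE 0.17), and Dusp2 had 8.93 and 9.56, against 8.50 and 8.44 (difference 0.78, SE 0.27). Dusp16 differed by 0.74 (SE 0.43), almost wholly in mouse 1. None of these genes passed the adjusted threshold in limma.

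Of 23 measured bZIP factors that pair or compete with AP-1, 7 were higher and 5 lower in both mice (median 0.11), beside 23.2% and 29.7% of all genes. In limma 0 passed an unadjusted p under 0.05 (1, Atf7, with the mouse as a block), beside 6.31% of all genes (6.04% with the block). Atf7 differed by 0.90 (SE 0.54), the AP-1 repressor Jdp2 by -0.52 (SE 0.36) and Batf by 0.54 (SE 0.39). Of 20 measured genes of the MAP kinase cascade and SRF with its partners, 4 were higher and 6 lower in both mice (median 0.02) and 0 passed that p, with the kinase genes Braf at -0.63 (SE 0.26), Map2k3 at 0.54 (SE 0.24) and Rps6ka5 at -0.53 (SE 0.32). Of 19 measured genes often cited as AP-1 targets, 4 were higher and 6 lower in both mice (median -0.10), and 2 were higher and 3 lower at an unadjusted p under 0.05, against 1 and 1 with the mouse as a block. Among them the cyclin gene Ccnd1 differed by 0.93 (SE 0.24), the cell cycle inhibitor gene Cdkn2a by -0.62 (SE 0.22) and the transcription factor gene Ets1 by 0.80 (SE 0.28), and the others past that p, outside the naming rule, were Tnf and Plau, both lower. Of 12 measured heat-shock chaperones, 3 were higher and 7 lower in both mice, with 0 past that p. Their median was -0.10, but 0.10 with the mean of each gene's probe sets and 0.23 with the most variable one, and 0.05 without the N-myc high array of mouse 1 and 0.13 without the N-myc low array of mouse 2, so it has no settled sign. Among them were Hspa5 at 0.43 (SE 0.23), Hspe1 at 0.29 (SE 0.18) and Bag3 at 0.68 (SE 0.47).

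**Figure D4:**
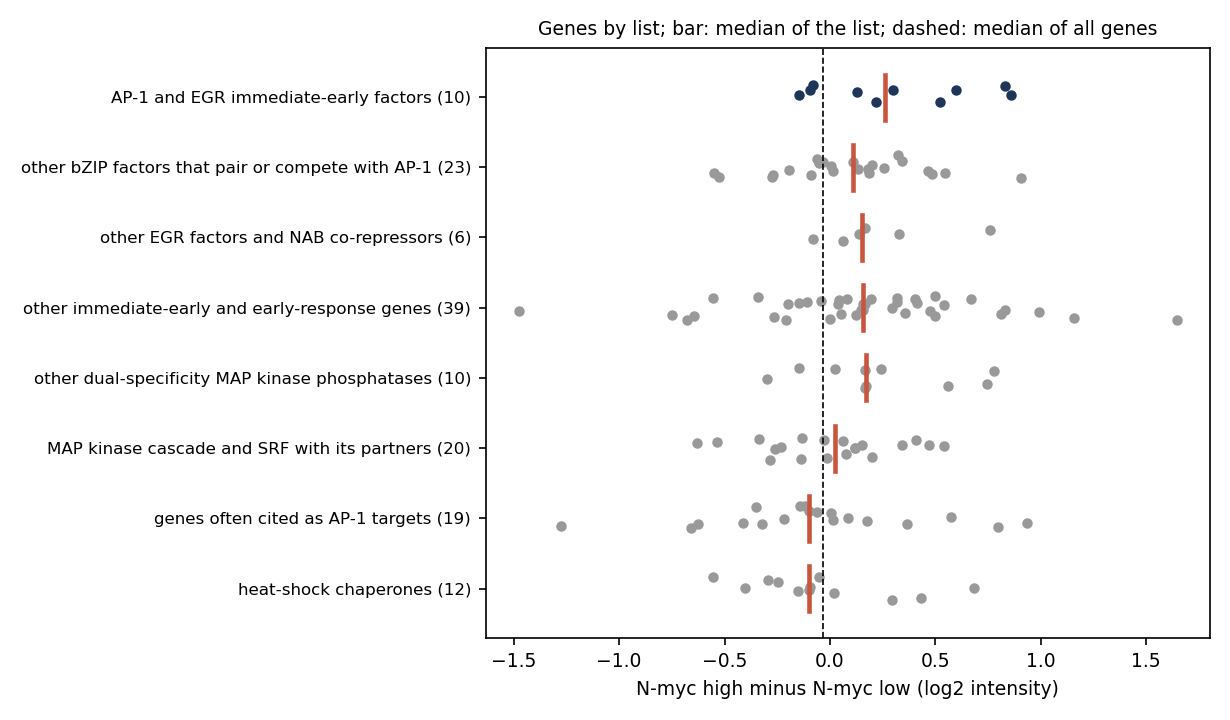
N-myc high minus N-myc low (horizontal axis, log2 intensity) of each gene (dots) in the 10 factors and the 7 lists around them, with the number measured in brackets, the median of each list as a red bar and the median of all genes as a dashed line. The medians run from -0.10 to 0.26, with single genes spread far more widely, and their order depends on the probe set rule: the 10 factors have the highest median here, at 0.26, but with the most variable probe set of each gene theirs is 0.19, below 5 of the 7 other lists.

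The profile of the 10 genes, each centred on its own mean and then averaged, was -0.06 and 0.38 in the N-myc high arrays of mouse 1 and 2, against -0.55 and 0.23 in the N-myc low arrays. Over the 4 arrays, the genes with the smallest Euclidean distance to this profile, the members left out, were E230016M11Rik (0.0428), Dhx57 (0.0508) and Folr2 (0.0529). These distances carry no test.

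Mycn, the gene behind the sort, had 10.48 and 10.39 in N-myc high, against 9.44 and 9.65 in N-myc low, in the direction of the labels. The median log2 intensity was 5.26 and 5.28 on the N-myc high arrays, against 5.32 and 5.27 on the N-myc low ones. The bioB and bioC hybridisation controls were at 10.85 and 10.81 in N-myc high, against 11.05 and 11.67 in N-myc low, so the N-myc low array of mouse 2 stood apart in them. Without that array the median difference of the 10 genes was 0.61, the highest of the 4 values with 1 array left out. Without the N-myc high array of mouse 1, which did not stand apart in these controls, the median difference was 0.50. Both omissions leave the mice unbalanced, and a link between the controls and the median difference was not tested. Gapdh signal at the 3′ end exceeded that at the 5′ end by 1.433 and 1.501 on the N-myc high arrays of mouse 1 and 2, against 1.40 and 1.62 on the N-myc low ones, on the log2 scale, and so higher in mouse 2 in both fractions.

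Bulk arrays cannot tell fewer cells of a type from less RNA per cell, which touches every value above. For the marker counts that follow, 23.2% of all genes were higher and 29.7% lower in both mice. Stem cell markers were bright on average (10 of 12 listed were measured), and their mean log2 intensity was 8.91 and 9.07 in N-myc high, against 8.49 and 8.21 in N-myc low, with 6 of 10 higher and 1 lower in both mice. Granulocyte and monocyte markers, cells in which AP-1 and EGR factors are also expressed, were bright as well. Their mean was 9.74 and 9.51 in N-myc high, against 9.97 and 10.15 in N-myc low, with 9 of 11 lower and 0 higher in both mice. The mean of 10 macrophage markers was 5.74 and 5.64, against 5.46 and 4.96, with 5 higher and 1 lower in both mice, and that of 8 dendritic cell markers was 7.44 and 7.46, against 6.51 and 6.32, with 6 higher and 0 lower. The median difference was -0.15 for 7 B cell, -0.01 for 9 T and NK cell, -0.37 for 7 erythroid, -0.34 for 6 megakaryocyte, -0.39 for 5 mast cell and 0.01 for 6 endothelial markers. RMA gives no value of 0, so absence cannot be read from these levels, and the part of such cells in the differences of the 10 genes was not tested. Of the 10 marker lists, the megakaryocyte and endothelial means were higher in mouse 2 in both fractions. The megakaryocyte mean was 8.25 and 8.23 in mouse 2 (N-myc high, then N-myc low), against 8.19 and 8.17 in mouse 1, and the endothelial mean was 6.03 and 5.96, against 5.77 and 5.80. Their median differences between the mice were only -0.06 and 0.008, beside 0.37 for the B cell markers. Both mouse 2 arrays lay above both mouse 1 arrays for 0 of 6 megakaryocyte, 2 of 6 endothelial and 3 of 7 B cell markers. They lay below them for 0, 1 and 0. Over all genes these orders were found in 16.9% and 14.6%.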

How the data were processed

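The authors deposited log2 intensities, 1 per probe set and array, made with RMA (which corrects background, sets the arrays to common quantiles and summarises probes). RMA, affy and limma are named, without a version, per the submitters' processing notes. This removes shifts shared by an array, so no absolute RNA amount is kept. Neither chip definition nor genome build is stated in the labels. No detection calls were used, and precision is limited by the number of arrays.

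Gene names came from the platform annotation: 34945 probe sets carried 1 gene name, 932 several and 9160 none, beside 64 controls. Of those with 1 name, 34741 had an Entrez number in the RefSeq table of assembly GRCm38.p6, and 0 symbols changed. No probe set that names several genes named a member. The brightest probe set by mean stood for each of the 18193 genes, and no gene was left out for being dim.

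N-myc high was compared with N-myc low by lmFit and eBayes of limma 3.58.1 under R 4.3.3, fitted over all genes, with Benjamini-Hochberg adjusted p under 0.05 as the threshold and intervals at 95%. Single probe sets were fitted over all 45037. The script was tested on simulated data. Same-numbered arrays carry the same mouse number in the labels and were read as the same mouse, which was not tested. Deviations of same-numbered arrays correlated at r = 0.0492 over all genes, and the fit with the mouse as a block stands beside the fit without it. The members, the 7 lists around them and the 10 marker lists were chosen with earlier results of these data known. The text names all 10 members, the 3 genes of smallest unadjusted p in each of the 7 lists, the 3 genes of nearest profile, and others only where it says they were chosen after their values were seen or where a statement on the arrays or cells rests on them. The alternatives were another probe set rule, every probe set, the brighter 50% of genes, array centring, repeated quantile normalization, an eBayes trend, the block and leaving out each array.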

Additional observations from a re-analysis of the deposited data

How the results depend on the processing

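No gene passed the adjusted threshold in limma under any of the 12 alternatives (0 of the genes tested in each), with 1148 genes at an unadjusted p under 0.05 in the fit as reported, against 1098 under the replicate block (the mouse). Restricting the test to the brighter 50% of genes gave 606 and widening it to all probe sets gave 2870, as the number of features tested shrank or grew, and the count ranged from 795 to 1512 with 1 array left out. The count of genes higher in both mice was 7 of 10, and between 6 and 7 under the 8 alternatives that keep all arrays. With 1 array left out no such count can be had. The median difference of the 10 genes was 0.26, stayed between 0.19 and 0.30 under those 8 alternatives, and ranged from -0.16 to 0.61 with 1 array left out. Its sign turned without the N-myc high array of mouse 2 (-0.07) and without the N-myc low array of mouse 1 (-0.16). Each of these omissions leaves the mice unbalanced. With the most variable probe set the lists' medians were 0.26 for the other bZIP factors, 0.25 for the EGR and NAB genes, 0.30 for the other immediate-early genes, 0.37 for the other DUSP genes, 0.15 for the MAP kinase and SRF genes, -0.25 for the AP-1 targets and 0.23 for the chaperones. The chaperone median also turned positive with the mean of probe sets (0.10) and ranged from -0.15 to 0.13 with 1 array left out. The AP-1 target median turned positive without the N-myc low array of mouse 1 (0.13). The MAP kinase and SRF median was -0.01 over the brighter 50% of genes, and turned negative without the N-myc high array of mouse 2 (-0.09) and without the N-myc low array of mouse 1 (-0.06). The medians of the other 4 lists stayed above 0 under all 12 alternatives. Single genes kept their sign under the 8 alternatives. With 1 array left out, the differences ranged from -0.19 to 0.63 for Fos, from -0.19 to 1.24 for Fosb, from -0.74 to 0.45 for Fosl2, from -0.56 to 0.41 for Jun and from -0.33 to 0.59 for Dusp1, while Egr1, Junb, Jund, Maff and Atf3 kept their sign. Jund moved to 0.38 with the mean of its probe sets and to 0.17 with the more variable one. Atf3 is left out by the filter on dim genes. The replicate block changed no call at the adjusted threshold. What the arrays can show is limited by 2 arrays a group and by the absence of a measured background for the dimmer probe sets.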
